A study of Mus musculus with 6 samples.

Results

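The genes described here are 10 of the 55401 listed in each table: the D-type cyclins Ccnd1, Ccnd2 and Ccnd3, their kinases Cdk4 and Cdk6, the kinase inhibitors Cdkn1b, Cdkn2a, Cdkn2b and Cdkn2c, and the retinoblastoma gene Rb1. They were chosen by symbol, and all 10 were listed, as the core of the switch that lets a cell leave G1. The libraries came from NIH3T3, an immortalised line of mouse embryo fibroblasts labelled wild type. There were 3 libraries from cells given the vehicle DMSO and 3 from cells given IPRN, with total counts of 60320282 to 78629444. Per the design text the cells were induced with hydrogen peroxide and TGF-β, to model fibroblasts of tumours, and IPRN was then added. It is not stated whether cells of the DMSO group were induced too, and no dose or time is given. IPRN and the induction therefore cannot be told apart as sources of a difference. Below, "under IPRN", "rose" and "fell" refer to the IPRN libraries compared with the DMSO libraries. The series title names angelicin, and the labels do not state how it relates to IPRN.

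In G1, growth factor signals raise the D cyclins, which bind and activate CDK4 and CDK6. These kinases phosphorylate the RB protein and loosen its hold on the E2F factors, which then switch on the genes of DNA synthesis. INK4 proteins (p16 from Cdkn2a, p15 from Cdkn2b, p18 from Cdkn2c, p19 from Cdkn2d) bind CDK4 and CDK6 and keep them from the D cyclins, while p27, from Cdkn1b, mainly inhibits CDK2. Cdkn2a also encodes ARF, which stabilises p53 and is read from its own promoter. NIH3T3 is known from other work as a line that has lost the Ink4a/Arf locus, and it is used in transformation assays.

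None of these genes passed the test of IPRN against DMSO. Of the 10 genes, 8 had enough counts to be tested, and 0 of the 8 were called changed by edgeR at an adjusted p under 0.05, where 5.47% of the 17159 genes tested were called (2.46% higher and 3.01% lower in IPRN). At an unadjusted p under 0.05 there were 2 of 8 (Ccnd2 and Cdk6), against 22.0% of all genes, and DESeq2 called 1 of 8 (Ccnd2), against 13.3%. The edgeR adjusted p-values ran from 0.0848 to 0.954. Point estimates were above 0 for 6 genes and below 0 for 2, with a median log2 fold change of 0.10 over the 8 and 0.0016 over all genes tested. The groups did not overlap for 3 of 8 (Ccnd2, Cdk6 and Cdkn1b), against 29.6% of all genes tested. Cdkn2a and Cdkn2b were at or near 0 counts in both groups and could not be tested.

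The INK4 genes differed from one another far more than IPRN differed from DMSO. Their reference promoters are shown first, and a link of these sequences to the levels was not tested. Each line gives 300 bases, from 250 before to 50 after an annotated start, on the minus strand of GRCm38.p6 as RefSeq has it, written 5′ to 3′. Capitals mark the GC box GGGCGG or its reverse complement and the cyclic AMP response element TGACGTCA.
Cdkn2a, ARF start, chr4:89294570-89294869: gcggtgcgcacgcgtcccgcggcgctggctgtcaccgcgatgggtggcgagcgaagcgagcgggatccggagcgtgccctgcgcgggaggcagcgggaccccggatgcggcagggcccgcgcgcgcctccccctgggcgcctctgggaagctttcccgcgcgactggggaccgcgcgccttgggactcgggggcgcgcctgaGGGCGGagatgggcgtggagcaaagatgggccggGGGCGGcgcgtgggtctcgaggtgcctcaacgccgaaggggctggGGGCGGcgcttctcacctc
Cdkn2a, p16 start, chr4:89282143-89282442: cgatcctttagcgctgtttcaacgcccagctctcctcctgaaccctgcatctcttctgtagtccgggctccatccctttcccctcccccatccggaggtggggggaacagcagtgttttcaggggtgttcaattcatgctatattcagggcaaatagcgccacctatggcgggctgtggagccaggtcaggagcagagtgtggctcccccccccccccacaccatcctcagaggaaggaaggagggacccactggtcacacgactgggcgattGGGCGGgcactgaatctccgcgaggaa
Cdkn2b, chr4:89310983-89311282: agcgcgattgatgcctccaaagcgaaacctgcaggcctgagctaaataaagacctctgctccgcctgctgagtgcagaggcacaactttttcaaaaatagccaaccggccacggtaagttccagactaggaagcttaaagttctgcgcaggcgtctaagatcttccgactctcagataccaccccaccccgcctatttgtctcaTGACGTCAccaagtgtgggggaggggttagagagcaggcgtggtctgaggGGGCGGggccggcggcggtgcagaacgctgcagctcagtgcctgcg
Cdkn2c, upstream start, chr4:109666707-109667006: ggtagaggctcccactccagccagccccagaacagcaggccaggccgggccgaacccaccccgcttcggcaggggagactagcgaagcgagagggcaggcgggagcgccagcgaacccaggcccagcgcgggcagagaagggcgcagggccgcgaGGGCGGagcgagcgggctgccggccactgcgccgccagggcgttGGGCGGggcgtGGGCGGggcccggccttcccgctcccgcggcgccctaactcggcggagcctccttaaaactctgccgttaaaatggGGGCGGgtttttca
The GC box occurred 3 times in the ARF window, 1 time in the p16 window, 1 time in the Cdkn2b window and 4 times in the Cdkn2c window. At least 1 GC box was present in 35.7% of the 32851 promoter windows in the RefSeq table. The response element was found only in the Cdkn2b window among these 4, and in 1.79% of all windows. The window for a second Cdkn2c start, further along the gene, held 0 matches of either motif. The matches are letters in the reference sequence and not measured sites. Whether the Cdkn2a and Cdkn2b windows are present in the DNA of these cells was not measured. Promoter windows were matched for 7 of the 10 genes.

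At the RNA level, the baseline of the INK4 family in these cells was Cdkn2c and, at a lower level, Cdkn2d. Their proteins were not measured. Cdkn2c (ENSMUSG00000028551, chromosome 4 from 109660876 to 109667189, minus strand, GRCm38) stood at 37.6, 35.0 and 33.4 FPKM in DMSO 1, 2 and 3, and at 30.5, 34.5 and 37.5 FPKM in IPRN 1, 2 and 3. FPKM are the authors' values scaled by gene length and library size, and they are used here wherever levels of different genes are compared. Cdkn2d, which is not among the 10 genes, measured 6.90, 12.4 and 6.96 FPKM in DMSO and 9.47, 9.28 and 14.2 FPKM in IPRN. Cdkn2c therefore made up between 73.8% and 84.5% of the summed INK4 FPKM in the DMSO libraries and between 72.3% and 78.8% in the IPRN libraries, and nearly all of the rest was Cdkn2d.

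Cdkn2a (ENSMUSG00000044303, chromosome 4 from 89274471 to 89294653, minus strand) had 0, 0 and 4 counts in the DMSO libraries and 0, 0 and 8 counts in the IPRN libraries. Cdkn2b (ENSMUSG00000073802, chromosome 4 from 89306299 to 89311039, minus strand) had 0, 0 and 8 counts in the DMSO libraries and likewise 0, 0 and 8 in those with IPRN. The same libraries, DMSO 3 and IPRN 3, held all the counts of both genes. Low counts in these tables came in steps of 4: between 1046 and 1386 genes per library had a count of 4, whereas 321 to 370 had 3 and 179 to 233 had 5. The detection floor was therefore set at 12 counts (3 such steps) after the counts were seen, in place of a planned floor of 3 counts. It is 0.153 to 0.199 CPM, the count scaled to the library total, depending on the library. All values of Cdkn2a and Cdkn2b lay under the floor of 12, so no fold change is given and no difference between the groups could be measured. Their values in DMSO 3 and IPRN 3 lay above the planned floor. A count of 0 allows a level of up to the floor, for counting error only. The tables give 1 count for all Cdkn2a transcripts, so p16 and ARF are not separated.

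Markers of other cell types were measured beside these counts. The 8 leukocyte markers summed to 125.4 CPM in IPRN 3 and to between 3.25 and 14.0 CPM in the other 5 libraries, with Lyz2 at 98.0 CPM in IPRN 3, and Cd3e had 0 counts in every library. The 22 hepatocyte markers summed to 45.2, 112.9 and 85.3 CPM in DMSO 1, 2 and 3 and to 147.9, 61.6 and 23.1 CPM in IPRN 1, 2 and 3, with 14 of 22 at 0 in DMSO 1 and 15 of 22 at 0 in IPRN 3. Haptoglobin (Hp), at 39.4 to 41.2 CPM in DMSO and 15.0 to 16.0 CPM in IPRN, made up much of the hepatocyte sum in DMSO 1 and IPRN 3. The 5 endothelial markers summed to between 1.55 and 3.53 CPM and the 5 epithelial markers to between 0 and 1.9 CPM. Fibroblast markers were high throughout, with 10 genes summing to 22236 to 26774 CPM and 0 of the 10 at 0. The part of the other cell types in the few INK4 counts was not tested.

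**Figure D1:**
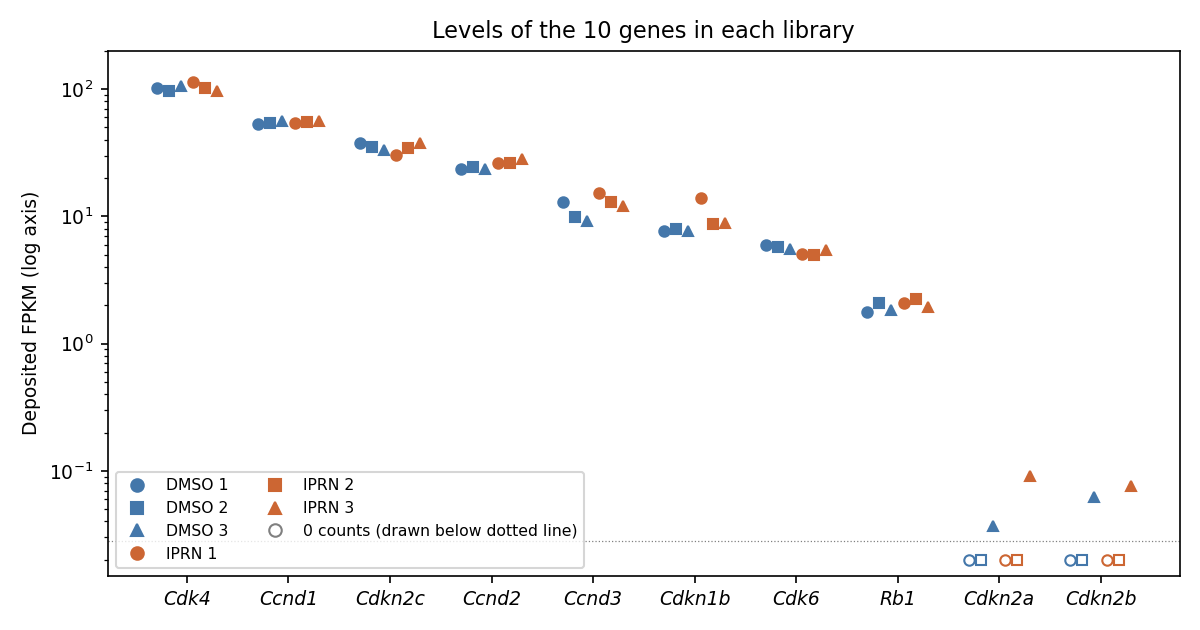
Deposited FPKM (log axis) of the 10 genes in each of the 6 libraries, with genes ordered by their highest value. Blue marks DMSO and orange IPRN, and open symbols under the dotted line are libraries with 0 counts. Cdk4 is highest at 95.8 to 113.9 FPKM, and Cdkn2a and Cdkn2b are at 0 in 4 of 6 libraries.

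The chromosomal setting of Cdkn2a and Cdkn2b was examined in the same tables. Within 1 Mb on either side of Cdkn2a, 69 genes were listed, of which 21 reached 10 counts in at least 1 library. Mtap, which encodes the methionine salvage enzyme methylthioadenosine phosphorylase, ends 93.4 kb before Cdkn2a and was among the most abundant transcripts of the region: 32695, 39475 and 41401 counts for DMSO 1, 2 and 3 and 32143, 34307 and 29539 for IPRN 1, 2 and 3. Past the end of Mtap, the 12 gene models listed up to the edge of the window, over 1.04 Mb, held between 0 and 26 counts in all per library. They included 4 protein-coding genes: Cdkn2a, Cdkn2b, Dmrta1, a transcription factor gene of the DMRT family, and Zfp352, a zinc finger gene. Of the 12, 6 had 0 counts in all 6 libraries (among them Dmrta1 and Zfp352), and the highest single value was 10 counts, of the small nucleolar RNA gene Gm26490 in IPRN 3.

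On the other side of Mtap, at lower coordinates, 18 of 55 genes reached 10 counts. The highest was Klhl9, which encodes an adaptor of a CUL3 ubiquitin ligase, with 8965 to 12069 counts per library, followed by Focad, which encodes focadhesin, with 1981 to 2905. The long noncoding RNA genes Gm49890 and Wincr1 had 1016 to 2006 and 1164 to 1477 counts, and the pseudogene Mrpl48-ps 476 to 595. Highest counts per library were lower for Gm13283 (329), Gm26566 (318), Gm13284 (110), Gm49891 (102), Hacd4 (84), Gm13274 (44), Gm12602 (39), Ifnz (33), Gm13286 (20), Gm10583 (20), Gm13271 (19), Gm13282 (12) and Ifne (10), and for Gm12607 (11), which lies inside Mtap. A further 20 of the 55, most of them type I interferon genes, had 0 counts in every library. Abundant transcripts were thus found up to Mtap and none past it. RNA counts do not measure DNA copy number, and many gene models on both sides are pseudogenes or genes that fibroblasts are not known to express. In bulk libraries, fewer cells of a type and less RNA per cell cannot be told apart.

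**Figure D2:**
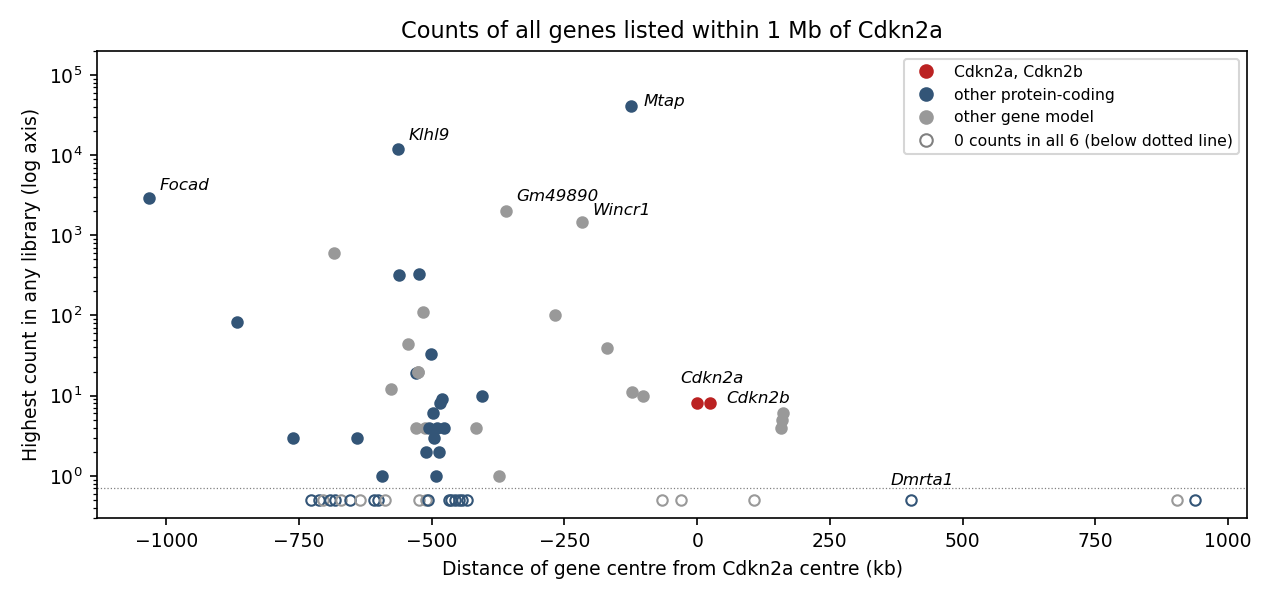
Highest count in any of the 6 libraries (log axis) of every gene listed within 1 Mb of Cdkn2a, against the distance of its centre from that of Cdkn2a in kb. Red marks Cdkn2a and Cdkn2b, blue other protein-coding genes and grey other gene models, with open circles for 0 counts in all libraries. Mtap stands at 41401 counts, and the highest value of a gene past its end is 10.

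Mtap itself was 1.18-fold lower under IPRN. After scaling by the TMM method, DMSO 1, 2 and 3 had 544.3, 542.4 and 527.8 CPM and IPRN 1, 2 and 3 had 450.9, 460.0 and 458.6 CPM, with an edgeR adjusted p of 0.0257. The call was lost when DMSO 1, DMSO 2, DMSO 3, IPRN 2 or IPRN 3 was left out (adjusted p up to 0.126). Klhl9 did not pass, at a log2 fold change of -0.05 and an adjusted p of 0.677.

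Ordered by FPKM over all 6 libraries, the other genes ran from Cdk4 (95.8 to 113.9) through Ccnd1 (53 to 56.4), Cdkn2c (30.5 to 37.6), Ccnd2 (23.5 to 28.3), Ccnd3 (9.26 to 15.2), Cdkn1b (7.73 to 13.9) and Cdk6 (4.94 to 5.92) to Rb1 (1.77 to 2.25). The ranges of Ccnd3 and Cdkn1b overlapped, and those of the other neighbours in this order did not. In DMSO, Cdk4 stood above 97.2% of the 17159 tested genes in mean FPKM, Ccnd1 above 94.8% and Rb1 above 41.5%.

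Ccnd1, the D cyclin gene most directly driven by growth factor signalling, differed little between the groups. In normalised CPM it reached 278.0, 285.7 and 296.7 for DMSO 1, 2 and 3 and 289.6, 288.2 and 286.9 for IPRN 1, 2 and 3. The 3 IPRN values lay inside the range of the DMSO values. The log2 fold change was 0.0073 ± 0.044 (SE) with a 95% interval of -0.10 to 0.11, so the interval runs from 0.935-fold to 1.08-fold of the DMSO level (edgeR adjusted p = 0.954). Ccnd1 (ENSMUSG00000070348) lies on chromosome 7 from 144929931 to 144939925, minus strand. It shares 23.4% of its exon bases with LTO1 on the opposite strand, which measured only 9.30 to 13.0 CPM by library total. The library protocol names no step that marks strand, and the strand setting of the counting was not stated.

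Ccnd2, the D cyclin typical of lymphoid and granulosa cells but also made by fibroblasts, was slightly higher under IPRN in every library. DMSO 1, 2 and 3 gave 246.6, 256.1 and 247.5 CPM, and IPRN 1, 2 and 3 gave 278.9, 273.1 and 291.6 CPM. The groups did not overlap, which was also the case for 29.6% of all genes tested. The estimate was 1.12-fold with an interval of 1.04 to 1.21, at an adjusted p of 0.0848 in edgeR and 0.0231 in DESeq2, so that the call depended on the tool. Its edgeR adjusted p was 0.0761 to 0.266 with 1 library left out and 0.431 without DMSO 1 and IPRN 3. Ccnd2 (ENSMUSG00000000184, chromosome 6 from 127125162 to 127152193, minus strand) shares 3.91% and 3.95% of its exon bases with 2 antisense models that had at most 0.398 CPM.

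Ccnd3, the most broadly expressed D cyclin, varied among libraries of the same group. It measured 127.2, 96.4 and 90.7 CPM in DMSO and 150.8, 126.1 and 116.8 CPM in IPRN. DMSO 1 stood above IPRN 2 and IPRN 3, so the groups overlapped. The estimate of 1.25-fold had an interval of 0.982 to 1.6 and an adjusted p of 0.264. Without DMSO 1 and IPRN 3, the libraries lowest in hepatocyte markers, the log2 fold change was 0.56 in place of 0.33, with an adjusted p of 0.178. With 1 library left out it ran from 0.21 (without IPRN 1) to 0.49 (without DMSO 1), and the adjusted p from 0.135 to 0.522. Ccnd3 (ENSMUSG00000034165, chromosome 17 from 47505051 to 47599689 in the files, plus strand) shares 4.11% of its exon bases with Bysl, at 60.1 to 75.2 CPM.

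The make-up of the D cyclins followed from these values. Ccnd1 accounted for 59.2%, 61.4% and 63.2% of the summed D cyclin FPKM in DMSO and for 56.8%, 58.5% and 57.9% in IPRN. Ccnd2 supplied 26.3% to 27.5% and 27.4% to 29.5%, and Ccnd3 10.4% to 14.5% and 12.6% to 15.9%. Summed over the 3 genes, the FPKM came to 89.5, 89.0 and 89.3 for DMSO and to 95.7, 94.6 and 96.0 for IPRN. These sums are given without a test, because their members were chosen with earlier results known.

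**Figure D3:**
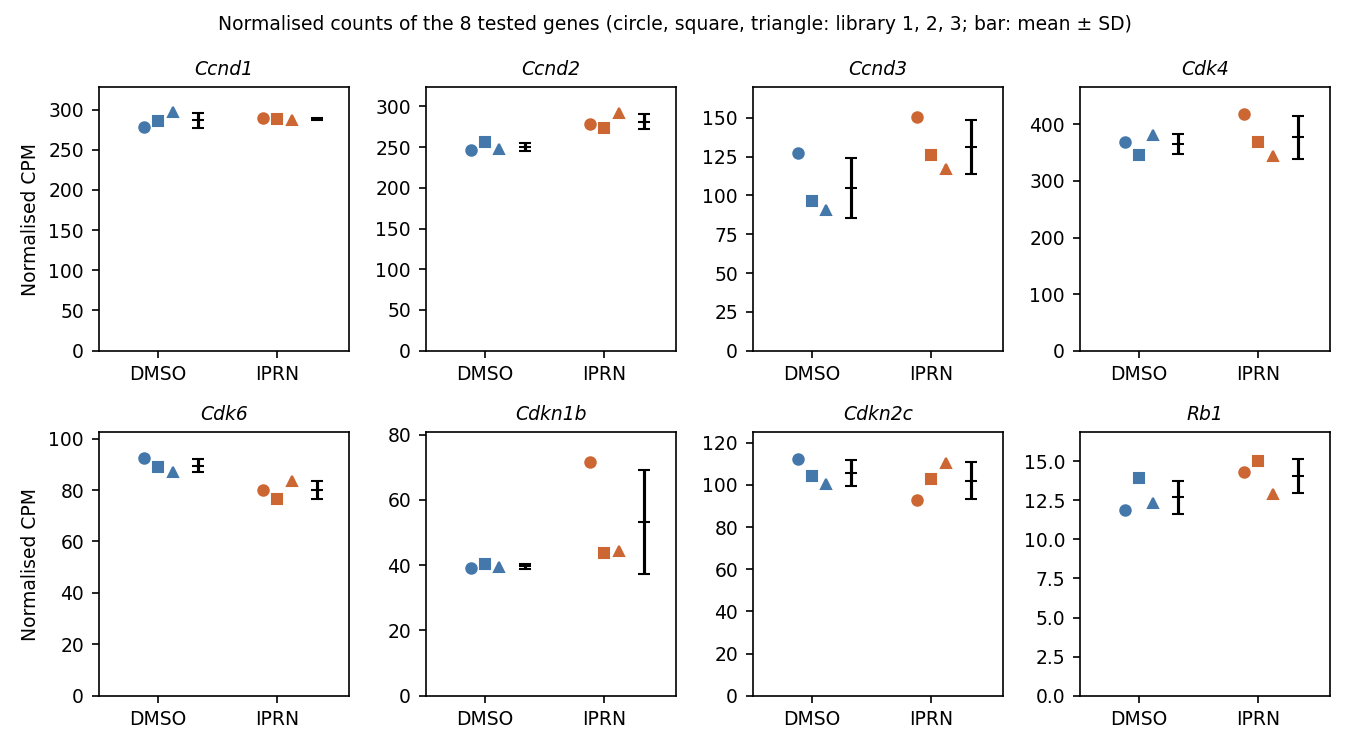
Normalised CPM of the 8 tested genes in each library, with each axis starting at 0. Circles, squares and triangles are libraries 1, 2 and 3 of a group, and bars show the mean and SD of 3 libraries. Ccnd1 is level at 278.0 to 296.7 CPM, and Cdkn1b is drawn up in IPRN by IPRN 1 at 71.6 CPM.

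Cdk4, the main D cyclin kinase here, made up 94.4% to 95% of the summed CDK4 and CDK6 FPKM in DMSO and 94.7% to 95.8% in IPRN. DMSO 1, 2 and 3 measured 368.9, 345.8 and 380.9 CPM, and IPRN 1, 2 and 3 measured 418.9, 368.9 and 343.8 CPM. The IPRN values spanned the whole DMSO range. The fold was 1.03 with an interval of 0.905 to 1.18 and an edgeR adjusted p of 0.811. Cdk4 (ENSMUSG00000006728, chromosome 10 from 127063534 to 127067920, plus strand) shares 19.7% of its exon bases with Tspan31 on the opposite strand, at 98.2 to 141 CPM, so its value is uncertain by reads that belong to Tspan31.

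Cdk4 is a textbook target of MYC, and its promoter is shown because Myc was lower in each IPRN library. Capitals mark the E-box CACGTG, the sequence that MYC and its partner MAX bind (its own reverse complement), and the window is given on the plus strand of GRCm38.p6 as RefSeq has it.
Cdk4, chr10:127063285-127063584: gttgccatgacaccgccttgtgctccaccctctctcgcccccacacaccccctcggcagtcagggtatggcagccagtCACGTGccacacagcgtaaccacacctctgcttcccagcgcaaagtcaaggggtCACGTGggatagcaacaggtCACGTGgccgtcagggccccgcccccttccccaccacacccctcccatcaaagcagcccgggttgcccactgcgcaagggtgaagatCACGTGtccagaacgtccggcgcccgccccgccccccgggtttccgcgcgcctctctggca
The window held 4 E-boxes, and 3 GC boxes that are left in lower case. At least 4 E-boxes were present in 0.0244% of the 32851 windows, and at least 1 in 7.15%. Myc itself had 102.1, 102.3 and 105.4 CPM in DMSO 1, 2 and 3 and 92.1, 69.5 and 71.8 CPM in IPRN 1, 2 and 3. The groups did not overlap, as in 29.6% of all genes tested. The difference in Myc missed the threshold in edgeR (log2 fold change -0.41, adjusted p = 0.0802) but not in DESeq2 (0.00653). Without IPRN 1 edgeR called it too, with a log2 fold change of -0.55 and an adjusted p of 0.00355. Myc is named here after its values were seen. Cdk4 itself did not pass (log2 fold change 0.047, edgeR adjusted p = 0.811), and a link between Myc and Cdk4 was not tested. Among the other matched windows of the 10 genes, the E-box occurred 1 time in that of Cdk6 and 1 time in the second window of Cdkn2c.

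Cdk6, the second D cyclin kinase, was slightly lower under IPRN. It gave 92.3, 88.9 and 87.2 CPM in DMSO and 80.1, 76.4 and 83.5 CPM in IPRN. The groups did not overlap, as in 29.6% of all genes tested, and the difference did not pass. The level in IPRN was 0.817 to 0.978 of that in DMSO by the 95% interval, at an adjusted p of 0.140 in edgeR and 0.0922 in DESeq2. The log2 fold change stayed between -0.20 and -0.13 whichever library was left out. Cdk6 (ENSMUSG00000040274) is listed on chromosome 5 from 3341485 to 3473180, plus strand.

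Cdkn1b, which encodes p27, had its highest value in a single IPRN library. DMSO 1, 2 and 3 were close together at 39.2, 40.5 and 39.3 CPM, and IPRN 1, 2 and 3 measured 71.6, 43.7 and 44.3 CPM. All 3 IPRN values were above all 3 DMSO values, with IPRN 1 far above the rest. Groups without overlap, in either direction, occurred for 29.6% of all genes tested. The 1.34-fold estimate had an interval of 0.983 to 1.83 and an adjusted p of 0.255. Without IPRN 1 the log2 fold change was 0.15 in place of 0.42, with an adjusted p of 0.190. Cdkn1b (ENSMUSG00000003031, chromosome 6 from 134920401 to 134925513, plus strand) shares no exon bases with another model. The p27 protein is controlled largely by translation and degradation, which these data do not measure.

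Cdkn2c, the most abundant INK4 gene here, overlapped between the groups. DMSO 1, 2 and 3 gave 112.5, 104.4 and 100.2 CPM, and IPRN 1, 2 and 3 gave 92.8, 102.6 and 110.5 CPM. The IPRN values lay on both sides of the DMSO mean of 105.7. The interval of the fold ran from 0.848 to 1.1 (edgeR adjusted p = 0.781).

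Rb1, the target of these kinases, was the lowest of the tested genes. It gave 11.9, 13.9 and 12.3 CPM in DMSO and 14.3, 15.0 and 12.9 CPM in IPRN, and the groups overlapped. The estimate was 1.11-fold with an interval of 0.931 to 1.31 and an adjusted p of 0.497. Rb1 (ENSMUSG00000022105, chromosome 14 from 73183673 to 73325822, minus strand) shares 8.11% of its exon bases with Rcbtb2 and 6.78% with Lpar6, which is encoded within an Rb1 intron. Rcbtb2, at 33.2 to 49.7 CPM, had more counts than Rb1, so the Rb1 level is uncertain.

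Around these genes, 85 of 87 listed pathway symbols were found, 84 had enough counts, and 2 rose and 6 fell. The symbols not found, Skp1 and Kpc1, are other names of Skp1a and Rnf123, which were found and tested. The share called was 9.52% of the 84, against 5.47% of all genes. DESeq2 called 16 of the 84, with 4 higher and 12 lower, against 13.3% of all genes. With 1 library left out, edgeR called between 1 (without DMSO 1, DMSO 2 or IPRN 2) and 10 (without IPRN 1). Over the whole table it called 133, 144 and 235 genes without DMSO 1, DMSO 2 and IPRN 2. Without IPRN 1 it called 1047, against 938 with all libraries. With DMSO 1 and IPRN 3 both left out, which leaves 2 libraries against 2, 0 of the 84 and 53 genes in all were called. In that smaller fit the log2 fold changes of the 8 genes kept their direction: 0.71 for Cdk2, 0.84 for Cbx8, -0.32 for Rrm1, -0.39 for Pola1, -0.29 for Mcm6, -0.47 for Klf4, -0.70 for Tbx3 and -0.43 for Mdm2.

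Among cyclin E, cyclin A and CDK2 genes, 1 of 9 rose, where 2.46% of all genes did. Of the rest, 0 fell and 8 did not pass (median log2 fold change 0.0019 over the 9). Cdk2, the kinase that takes over from CDK4 and CDK6 late in G1 and the main target of p27, was the gene that rose. It went from 35.4, 34.6 and 29.3 CPM in DMSO to 54.3, 50.3 and 50.4 CPM in IPRN, a clear gap between the groups. The rise was 1.56-fold (log2 fold change 0.64 ± 0.089, SE) at an edgeR adjusted p of 0.0147. The adjusted p was 0.0279 to 0.0688 with 1 library left out, and the call was lost without DMSO 1, DMSO 2, IPRN 2 or IPRN 3. Cdk2 shares 0.547% of its exon bases with Pmel, which had at most 0.362 CPM. Cdk7, of the CDK-activating kinase, measured 46.9 ± 2.96 and 41.5 ± 6.03 CPM (SD, n = 3), with an adjusted p of 0.440 in edgeR.

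E2F target genes of the G1/S transition, which are read as output of the RB switch, showed 3 falls, 0 rises and 17 that did not pass among 20, where 3.01% of all genes fell. DESeq2 called 8 of the 20, all lower in IPRN, where it called 6.49% of all genes lower. Besides the 3 edgeR calls these were Mcm3, Pcna, Rrm2, Cdc6 and Cdc45. With 1 library left out, edgeR called 0 without DMSO 1, DMSO 2 or IPRN 2, 1 without DMSO 3 or IPRN 3, and 4 without IPRN 1. Over the whole table the calls also changed, from 938 to 133, 144 and 235 without DMSO 1, DMSO 2 and IPRN 2. They were 185 and 262 without DMSO 3 and IPRN 3, and 1047 without IPRN 1. The median log2 fold change of the 20 E2F targets was -0.12, against 0.0016 over all genes tested, and 17 of 20 estimates were below 0. The list was chosen with earlier results of these data known, and it was not tested as a set. The groups did not overlap for 13 of 20, against 29.6% of all genes. Rrm1, a subunit of ribonucleotide reductase, went from 412.0, 408.6 and 413.7 CPM to 330.3, 329.8 and 334.7 CPM. Pola1, the catalytic subunit of DNA polymerase α, was 1.35-fold lower (adjusted p = 0.0291 in edgeR), and Mcm6, a subunit of the replicative helicase, 1.21-fold lower (0.0293). Each of these calls was lost without DMSO 1, DMSO 2 or IPRN 2, those of Rrm1 and Mcm6 also without DMSO 3, those of Pola1 and Mcm6 also without IPRN 3, and that of Pola1 also without IPRN 1.

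The factors between RB and those targets gave 0 calls among 12 pocket protein, E2F and DP genes (median 0.062), where 5.47% of all genes were called. The smallest adjusted p-values were those of the repressor genes E2f5, at 21.3 ± 2.58 and 25.4 ± 1.95 CPM (0.248 in edgeR), and E2f6, at 1.62 ± 0.272 and 2.40 ± 0.958 CPM (0.411). The other CDK inhibitors gave 0 calls among 3 tested of 4 (median -0.057), against the same 5.47%. Cdkn1c, which encodes p57, had 0 counts in every library. Cdkn1a, which encodes the p53-induced inhibitor p21, measured 207.6, 204.6 and 210.4 CPM in DMSO and 201.3, 204.5 and 188.8 CPM in IPRN (adjusted p = 0.488 in edgeR). Cdkn2d had an adjusted p of 0.570.

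Genes that turn over D cyclins, cyclin E and p27 gave 0 calls among the 12 tested (median 0.019), where 5.47% of all genes were called. The list held 14 symbols, of which Skp1 and Kpc1 are other names of the tested Skp1a and Rnf123. The scaffold gene Cul1 and the adaptor gene Skp1a, both of the SCF ubiquitin ligase, had the smallest adjusted p-values with all 6 libraries, 0.154 and 0.155 in edgeR. DESeq2 also called 0 of the 12, against 13.3% of all genes. Gsk3b, the kinase that marks cyclin D1 for degradation, is named after its values were seen: it measured 68.2, 88.2 and 65.4 CPM in DMSO 1, 2 and 3 and 93.2, 33.1 and 42.4 CPM in IPRN 1, 2 and 3. IPRN 1 was its highest library, and without IPRN 1 the log2 fold change was -0.97 in place of -0.39, with an edgeR adjusted p of 0.0351 in place of 0.616. Of 11 inputs to D cyclin transcription 1 fell, 0 rose and 10 did not pass (median -0.00017), where 3.01% of all genes fell. The gene that fell was Klf4, a Krüppel-like factor that restrains proliferation in many cells, from 97.3, 92.8 and 90.0 CPM to 67.7, 64.5 and 57.2 CPM. Its fall was 1.48-fold at an edgeR adjusted p of 0.0125, and the call was lost without DMSO 1, DMSO 2, DMSO 3 or IPRN 2. Tcf7l2, a transcription factor of the WNT pathway, was 1.35-fold higher without passing (0.0549 in edgeR, 0.00403 in DESeq2).

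Of 14 regulators of the INK4 locus, 1 rose, 1 fell and 12 did not pass (median -0.10). Over all genes tested, 2.46% rose and 3.01% fell. Cdkn2a and Cdkn2b themselves lay under the floor in every library. The T-box gene Tbx2 was the rarest of the 14 regulators, at 10 to 42 counts per library, which reaches below the floor of 12 in IPRN 3. Cbx8, a chromobox subunit of Polycomb repressive complex 1 known to bind this locus in fibroblasts, rose from 7.23, 7.42 and 8.44 CPM to 14.4, 14.0 and 14.9 CPM, 1.88-fold at an edgeR adjusted p of 0.00631. It stayed called with each single library left out (0.0138 to 0.0455). Tbx3, a T-box repressor of the ARF promoter, was lower in all IPRN libraries, with 51.8, 53.8 and 66.3 CPM against 36.5, 37.7 and 40.7 CPM (1.5-fold, adjusted p = 0.0300 in edgeR), but leaving out any library ended that call (0.0614 to 0.102). On the axis that ARF feeds, 1 of 3 genes fell, 0 rose and 2 did not pass (median -0.015). Mdm2, the ubiquitin ligase that ARF restrains, fell from 93.7 ± 2 to 71.2 ± 2.82 CPM (SD, n = 3; edgeR adjusted p = 0.0125), with the call lost without DMSO 1, DMSO 2, DMSO 3 or IPRN 2. Trp53, which encodes p53, measured 178.7 ± 4.57 and 186.1 ± 14.0 CPM with an edgeR adjusted p of 0.666.

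**Figure D4:**
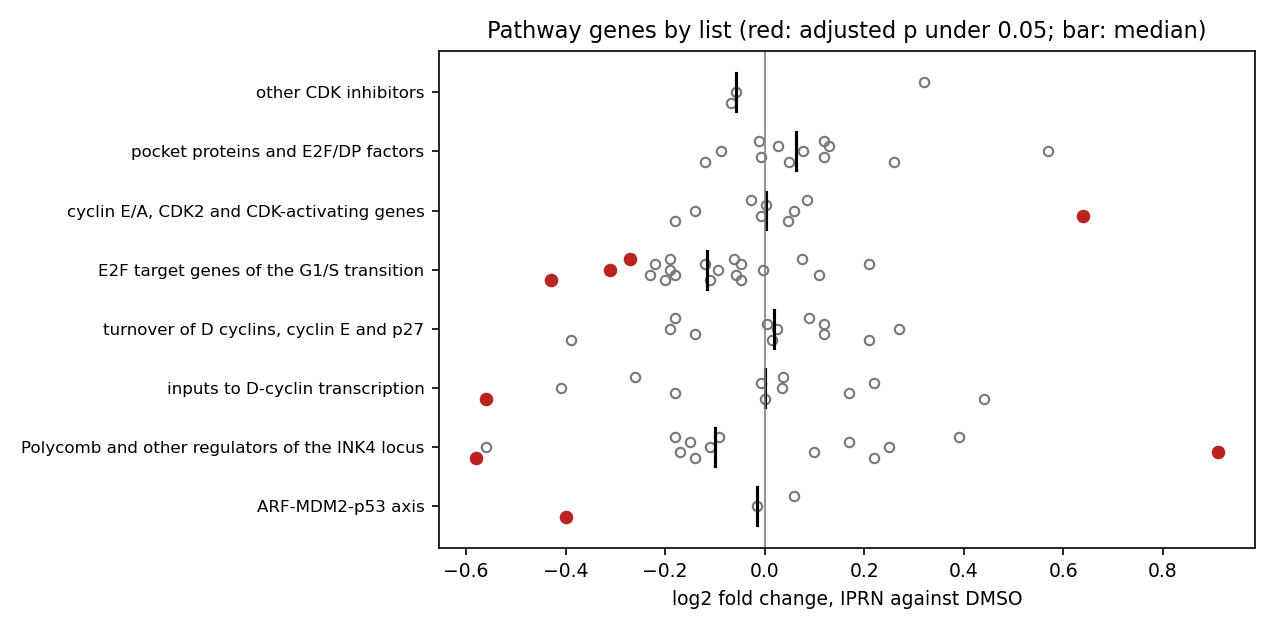
The log2 fold change of each tested pathway gene, IPRN against DMSO, by list, with red for an adjusted p under 0.05 and a bar at each list's median. The E2F target genes have their median at -0.12, and Cbx8 is the point farthest to the right at 0.91.

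Among the 8 tested core genes, the interval of Ccnd1 was the narrowest, and those of Cdk4, Cdkn2c and Rb1 all contained 0 and ended at or below 0.39 on the log2 scale. The widest was that of Cdkn1b, up to 0.87, followed by that of Ccnd3, up to 0.68.

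**Figure D5:**
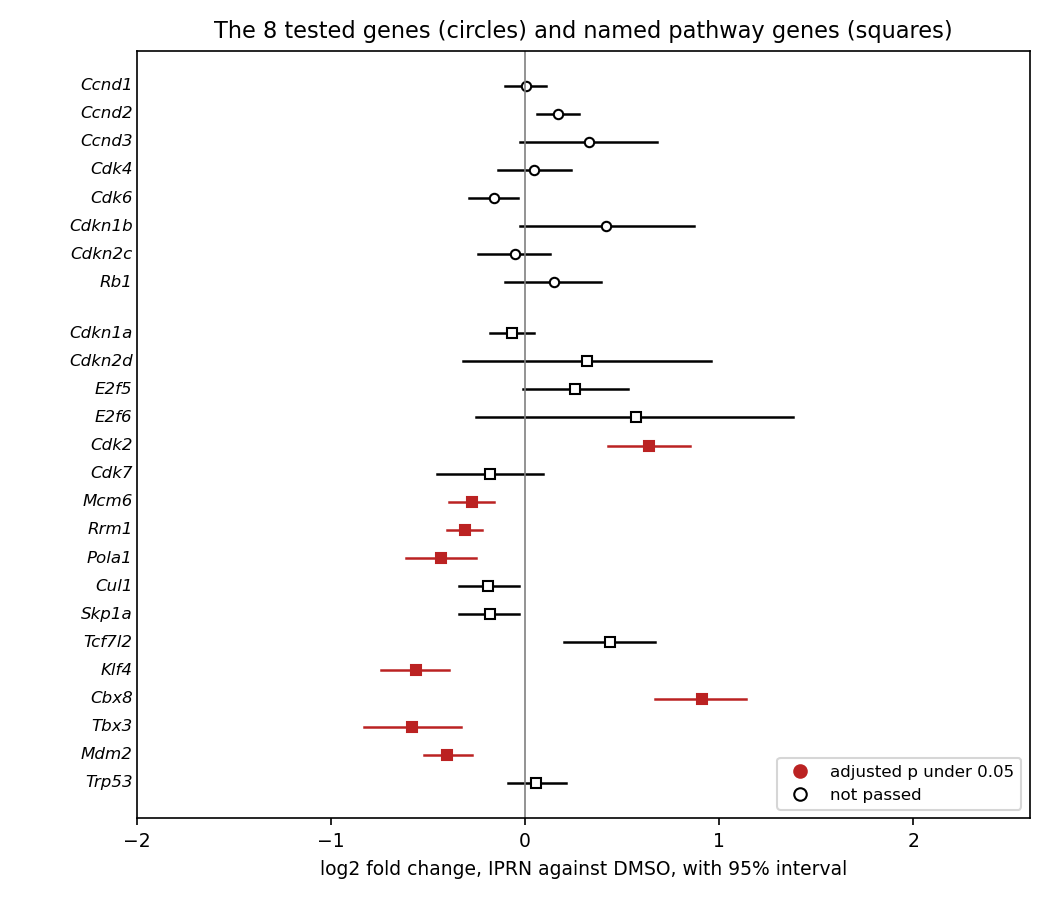
Points show the log2 fold change, IPRN against DMSO, with its 95% interval for the 8 tested core genes (circles) and the named pathway genes (squares). Filled red symbols have an edgeR adjusted p under 0.05. All 8 circles are open, and the interval of Ccnd1 runs from -0.10 to 0.11.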

How the data were processed

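Polyadenylated RNA was sequenced in 3 DMSO and 3 IPRN libraries of NIH3T3 cells, whose titles and treatment labels give the group and the replicate number. Separate cultures are not stated, so that the p-values refer to the spread among these 6 libraries, which could be purely technical. The authors deposited a table for each library that pairs Ensembl genes with counts and FPKM, per the file headers. The deposited counts are whole numbers without normalization, and the authors' FPKM are scaled by gene length and library. Reads were trimmed with cutadapt 1.9, per the submitters' processing notes. Aligner, counter, strand setting and build: not given in the sources used here. Positions of 94.2% of 55141 shared gene IDs are identical to GENCODE M21 on GRCm38, and exon overlaps were taken from that annotation, in which 8 of the 10 genes have the position given in the files.

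Total counts ran from 60320282 to 78629444. Because low counts come in steps of 4, the number of sequenced fragments may be lower than the count, and this was not tested beyond repeating the test on counts divided by 4. The count test was edgeR's two-sided quasi-likelihood test (edgeR 4.0.16 in R 4.3.3), after TMM scaling and the default expression filter (minimum count 10), in a model with treatment alone. P-values were adjusted by the Benjamini-Hochberg method over 17159 genes, and adjusted p-values in the text come from this test unless DESeq2 1.42.0 is named. Intervals are 95% intervals from the fitted SE, and values are TMM-normalised CPM. The 10 genes, the pathway lists and the alternatives were chosen with earlier results of these data known. All called genes of each pathway list were named, or the 2 with the smallest adjusted p where fewer than 2 were called, and so were genes within 1 Mb of Cdkn2a with at least 10 counts. Alternatives were other scalings, filters and tools, each library left out, DMSO 1 and IPRN 3 left out, a replicate block, and counts divided by 4, the last chosen after seeing the data. The detection floor of 12 counts was likewise chosen after seeing the data.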

Additional observations from a re-analysis of the deposited data

How the results depend on the processing

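The number of genes called over the whole table, 938, was 621 with no low-count filter, 2283 with DESeq2, 103 with replicate number as a block, 53 without DMSO 1 and IPRN 3, and 133 to 1047 with 1 library left out. It was 1136 on counts divided by 4. The number of core genes called was 1 with DESeq2 (Ccnd2) and 0 in every other fit. Same-numbered libraries did not deviate together (r = -0.175, 0.0864 and -0.13 across genes), beside -0.162 to 0.237 for libraries of different number. With 3 libraries per group these values cannot decide whether the number pairs the samples. Among the genes named, directions turned for the values that follow. With 1 library left out, the log2 fold change ranged from -0.015 to 0.032 for Ccnd1, from -0.035 to 0.11 for Cdk4, from -0.12 to 0.012 for Cdkn2c and from -0.0047 to 0.09 for Trp53. Without DMSO 1 and IPRN 3 it was -0.014 for Ccnd1 and -0.04 for Cdkn2d, against 0.32 with all libraries. Tbx2, at 10 to 42 counts per library, went from -0.56 to 0.26 in that fit. The cause was not tested. In the replicate block, Klf4 (adjusted p = 0.0474) and Cbx8 (0.0479) stayed called by edgeR, and Cdk2 (0.0638), Rrm1 (0.0907), Mcm6 (0.134), Pola1 (0.084), Tbx3 (0.0719), Mdm2 (0.0788) and Mtap (0.13) did not. Among the 10 genes, only Cdkn2a and Cdkn2b stayed under the detection floor, and the reason was not tested.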
